A study of Mus musculus with 16 samples.

Results

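Markers of the 2 EC types of the lung capillary bed were followed through LPS injury and through loss of endothelial Fgfr1. The genes were chosen by name, 4 as markers of general capillary ECs (Gpihbp1, Kit, Aplnr and Cd93) and 6 as markers of aerocytes (Car4, Ednrb, Apln, Fibin, Tbx2 and Kitl). They are 10 of the 54532 genes in each deposited table, and 10 of 10 passed the filter of a mean of at least 0.5 FPKM in both experiments. FPKM is a read number scaled for the length of the gene and the depth of the library. In the deposited values that depth is close to a median of gene ratios between libraries, rather than the total reads. The genes were proposed with earlier results of these libraries known, so their own differences are described without a test, and tests are given for other genes only.

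General capillary ECs line most of the alveolar capillary network, serve as its progenitors and help to set its tone, whereas aerocytes are the large, thin ECs apposed to the alveolar epithelium and specialised for gas exchange. The cell types are linked by ligands and receptors: aerocytes make apelin (Apln) and KIT ligand (Kitl), and general capillary ECs carry the matching receptors Aplnr and Kit. These ECs are lost and rebuilt when the alveolar wall is injured, and no cell type is marked by a single gene alone.

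Bulk RNA-seq was made on mouse pulmonary ECs taken from digested lung with magnetic beads, by removing cells with CD45 and then capturing cells with CD31. In the first experiment, male WT mice of the C57/BL6J strain, 8 weeks old, received saline (n = 4 libraries) or 10 mg/kg LPS (n = 6) into the trachea. LPS (lipopolysaccharide) comes from the wall of Gram-negative bacteria and provokes acute inflammation. In the second, 3 libraries came from Fgfr1 loxP/loxP mice and 3 from their Fgfr1 iΔEC/iΔEC littermates, which all received 2 mg/kg LPS, and no saline group was part of it. The iΔEC/iΔEC mice carry the loxP alleles together with VE-cadherin-CreERT2, a tamoxifen-induced recombinase driven by the promoter of an endothelial cadherin gene, and tamoxifen was given to both genotypes. These mice were adults, and their exact age and their sex are not given in the sources used here. RNA was taken 24 h after the instillation in all groups. Reads on genes numbered 13478726 to 18807007 per library for saline, 17840221 to 19043015 for LPS, 15969575 to 17002788 for loxP/loxP and 16642177 to 16943522 for iΔEC/iΔEC. The labels number the libraries within a group without naming the mouse, so p-values measure the spread between these libraries. In bulk RNA, fewer cells of a type and less RNA per cell cannot be told apart.

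The fraction carried the markers of ECs. In saline, Pecam1, which encodes CD31, was at 338.5 to 516 FPKM, and Cdh5, which encodes VE-cadherin, was at 709.6 ± 56.0 FPKM (SD, n = 4). Each of the 10 capillary markers was read in every library, with Aplnr in iΔEC/iΔEC library 2 the lowest at 187 reads. The library LPS 1 stood apart within its group. It was the lowest of the LPS libraries in 10 of 10 capillary markers and in 10 of 10 endothelial markers, against 23.1% of all genes tested, and it had the highest summed leukocyte markers of its group. Among the saline libraries, saline 3 was the highest in 8 of 10 capillary markers (28.1% of all genes tested), and saline 1, the library with the fewest reads, was the lowest in 6 (37.3%).

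Promoters in RefSeq (GRCm38.p6) were found for 6 of 10 genes, namely Kit, Car4, Ednrb, Apln, Fibin and Kitl. The bases before the transcription start of 3 aerocyte genes are shown, since these genes differed in how far they were lower after LPS. Capitals mark each match on either strand to CCGGAA, the core of ETS factor sites, or CACCC, the core of KLF factor sites. Both families include regulators of endothelial genes. The windows are chr14:103843702-103843951 for Ednrb (minus strand), chr11:84957504-84957753 for Car4 (plus strand) and chrX:48034854-48035103 for Apln (minus strand), each read 5′ to 3′.
Ednrb: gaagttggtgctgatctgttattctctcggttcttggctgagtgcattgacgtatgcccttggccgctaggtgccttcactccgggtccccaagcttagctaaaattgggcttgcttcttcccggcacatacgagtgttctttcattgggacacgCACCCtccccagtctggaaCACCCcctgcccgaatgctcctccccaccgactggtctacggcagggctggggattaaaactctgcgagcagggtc
Car4: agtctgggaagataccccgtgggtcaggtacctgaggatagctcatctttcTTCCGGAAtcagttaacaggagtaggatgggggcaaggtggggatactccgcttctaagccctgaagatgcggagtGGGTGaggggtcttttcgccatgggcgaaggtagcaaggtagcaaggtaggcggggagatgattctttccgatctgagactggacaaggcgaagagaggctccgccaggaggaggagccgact
Apln: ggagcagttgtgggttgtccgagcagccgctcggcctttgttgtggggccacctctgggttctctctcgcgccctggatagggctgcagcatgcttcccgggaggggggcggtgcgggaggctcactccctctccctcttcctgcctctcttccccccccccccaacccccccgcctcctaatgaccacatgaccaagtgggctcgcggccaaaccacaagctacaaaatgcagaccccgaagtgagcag

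The Car4 window held CCGGAA on both strands in a single overlapping stretch and CACCC once. The Ednrb window held CACCC at 2 places, and the Apln window held neither. Over the 250 bases before the start of all 27025 RefSeq promoters, CCGGAA was found in 12.2% and CACCC in 51.3%. The Ednrb window lies within the span of the gene in the authors' table, upstream of the RefSeq start. Other motifs were searched on both strands of the whole 250 bases of the 6 genes. The AP-1 motif TGANTCA (in 6.87% of promoters) and the GATA motif AGATAA (10.3%) matched in 0 of 6, while TATAAA (13.0%) and the NF-kB motif (1.17%) each matched in 1 of 6, that of Kitl. The windows of Kit, Fibin and Kitl also reach into the gene of the authors' table, after 179, 60 and 59 bases. Both Kitl matches lie past that point. All matches describe letters in a window and carry no statement on binding.

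After LPS, 9 of 10 capillary markers had a lower mean (49.3% of all genes tested had a fold change below 0), and 6 of 10 were lower by at least 1 on the log2 scale, namely Aplnr, Kit, Ednrb, Tbx2, Fibin and Car4. In these same 6 genes every LPS library lay below every saline library. Of all 14893 genes tested, 7.2% had a log2 fold change of -1 or lower and 16.7% had groups apart with LPS lower; since the markers were chosen with this contrast known, nothing is read from their excess. The median log2 fold change, on log2(FPKM + 1), was -1.02 over the 4 general capillary markers and -1.46 over the 6 aerocyte markers, against 0.01 over all genes tested. General capillary markers ranged from -3.84 to 0.26 and aerocyte markers from -2.44 to -0.81. At the adjusted p and fold limits used for other genes, 1768 genes (11.9%) were called higher in LPS and 1011 (6.79%) were called lower. Scaling on total reads gave 1378 and 1452, quantile normalization gave 1366 and 1326, and scaling on 10 endothelial markers gave 3882 and 265. The endothelial scaling shifted the median of all genes to 0.49, and under it 3 of 10 markers were still lower by at least 1, namely Aplnr (-3.25), Ednrb (-1.85) and Tbx2 (-1.17). Kit was then at -0.80, Car4 at -0.82, Fibin at -0.89 and Kitl at -0.30, whereas quantile normalization gave -1.95 for Kit, -1.97 for Fibin and -1.43 for Kitl.

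**Figure D1:**
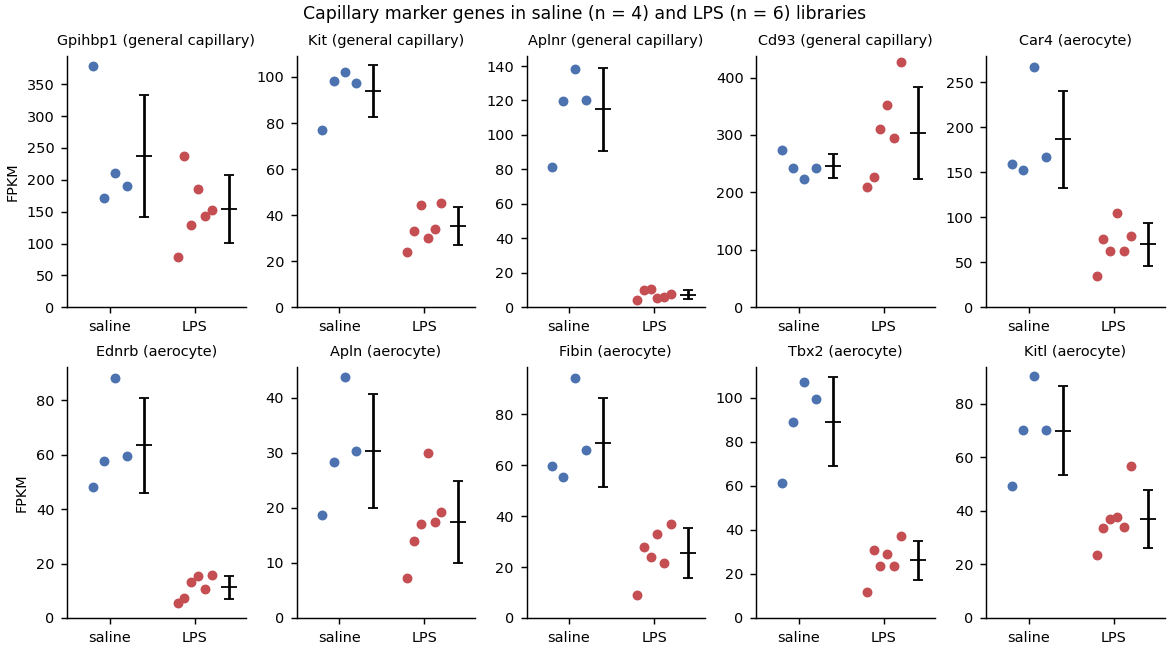
FPKM (linear axis from 0) of each of the 10 capillary markers in the 4 saline (blue) and 6 LPS (red) libraries; each point is a library, and the black mark and bar are the mean and SD. The groups are apart for Kit, Aplnr, Car4, Ednrb, Fibin and Tbx2 and overlap for Gpihbp1, Cd93, Apln and Kitl.

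Aplnr, the receptor for apelin on general capillary ECs, had the lowest fold change of the 10 genes. The gene (ENSMUSG00000044338) lies on chromosome 2 from 85136225 to 85139923, plus strand, on GRCm38. It was at 81.2, 119.6, 138 and 120.4 FPKM in saline 1 to 4. In LPS it ranged from 4.20 to 10.8 FPKM with a median of 6.68 FPKM. All LPS libraries thus lay far below the lowest saline library, and the mean went from 115 ± 24.1 FPKM (SD, n = 4) down to 7.32 ± 2.65 FPKM (SD, n = 6), a 15.7-fold difference. On the log2 scale this was -3.84 ± 0.24 (standard error), and 1 of the 14893 genes tested had a lower value. Its LPS values rest on 286 to 725 reads per library, so counting error is small beside the spread between libraries. Without LPS 1 the change was -3.71.

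Apln, which encodes the ligand apelin and is on the X chromosome (48025146 to 48034853, minus strand, ENSMUSG00000037010), was the least abundant marker in saline. Its levels were 18.8, 28.3, 43.8 and 30.3 FPKM in saline 1 to 4. After LPS they ran from 7.18 to 29.9 FPKM with a median of 17.2 FPKM, so the groups overlapped. The mean was 30.3 ± 10.3 FPKM (SD, n = 4) in saline and 17.5 ± 7.45 FPKM (SD, n = 6) in LPS, or -0.81 ± 0.33 on the log2 scale (standard error). This value depended on the scaling, at -0.22 on the endothelial scaling and -1.17 with quantile normalization, and on single libraries, at -0.59 without LPS 1, -0.62 without saline 3 and -1.01 without saline 1.

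Receptor and ligand therefore changed places. The ratio of Aplnr to Apln within a library, which no library scaling alters, was 3.16 to 4.32 in saline and 0.184 to 0.724 in LPS. Receptor FPKM exceeded ligand FPKM in every saline library and was below it in every LPS library. In the second experiment, where all mice had LPS, the ratio was 0.150 to 1.05 in loxP/loxP and 0.0830 to 0.327 in iΔEC/iΔEC libraries.

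Kit, the receptor tyrosine kinase for KIT ligand, lies on chromosome 5 from 75574916 to 75656722, plus strand (ENSMUSG00000005672). Saline 1 to 4 had 77.2, 98.2, 102 and 97.2 FPKM, the smallest saline spread, relative to the mean, among the 6 genes whose groups were apart. LPS libraries ran from 23.9 to 45.2 FPKM with a median of 33.7 FPKM, and all were below the lowest saline library. The mean fell to 37.5% of saline, from 93.7 ± 11.3 (SD, n = 4) to 35.2 ± 8.24 FPKM (SD, n = 6), with a change of -1.41 ± 0.18 on the log2 scale (standard error). Kit is also a marker of mast cells. The 7 mast cell and basophil genes listed summed to 1.21 to 7.10 FPKM in saline and 1.18 to 4.04 FPKM in LPS, and their most abundant gene in saline was Cpa3 at 1.10 ± 0.528 FPKM (SD, n = 4).

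Kitl, the ligand of KIT, lies on chromosome 10 from 100015630 to 100100416, plus strand (ENSMUSG00000019966). It was at 49.4, 70.1, 90.6 and 70.1 FPKM in saline 1 to 4, and at 23.6 to 56.6 FPKM in LPS with a median of 35.5 FPKM. The groups overlapped only through saline 1 and LPS 6. The mean went from 70.0 ± 16.8 (SD, n = 4) to 37.1 ± 10.8 FPKM (SD, n = 6), or -0.91 ± 0.22 on the log2 scale (standard error). Kit over Kitl was 1.13 to 1.56 in saline and 0.796 to 1.20 in LPS, so this ratio, unlike that of Aplnr to Apln, overlapped between the groups.

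**Figure D2:**
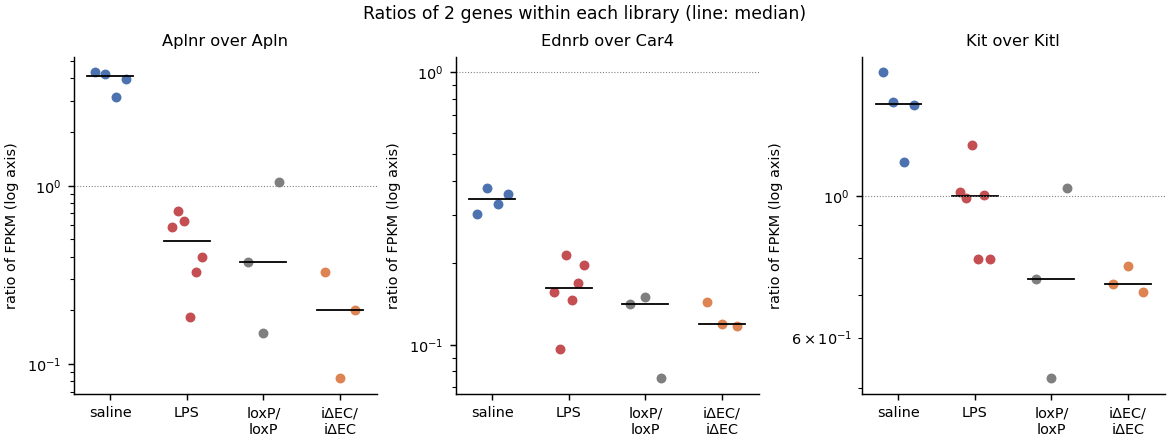
Ratio of the FPKM of 2 genes within each library (log axis) in saline, LPS, loxP/loxP and iΔEC/iΔEC libraries; points are libraries, the line is the median, and the dotted line marks equal values. Aplnr over Apln lies above 1 in all saline and below 1 in all LPS libraries, Ednrb over Car4 is apart between saline and LPS, and Kit over Kitl overlaps; loxP/loxP and iΔEC/iΔEC libraries come from another experiment and dose.

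Gpihbp1 encodes the protein that anchors lipoprotein lipase on the luminal face of capillary ECs. It lies on chromosome 15 from 75596628 to 75599481, plus strand (ENSMUSG00000022579). Saline 1 held 379 FPKM, while saline 2 to 4 held 171, 210.1 and 191 FPKM. LPS libraries ranged from 79.7 to 237 FPKM with a median of 148 FPKM and overlapped with saline. The mean was 238 ± 95.5 FPKM (SD, n = 4) in saline and 155 ± 53.2 FPKM (SD, n = 6) in LPS, or -0.62 ± 0.30 on the log2 scale (standard error). Without saline 1 it was -0.37. It was 0.00 on the endothelial scaling, -0.82 on total reads and -1.23 with quantile normalization.

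Cd93, a C-type lectin-like receptor that binds the matrix protein MMRN2, lies on chromosome 2 from 148436640 to 148443563, minus strand (ENSMUSG00000027435). It was at 274, 242, 224 and 243 FPKM in saline 1 to 4 and at 209.8 to 426 FPKM in LPS, with a median of 303 FPKM. The groups overlapped, and the mean was 246 ± 20.8 (SD, n = 4) against 304 ± 80.3 FPKM (SD, n = 6). The change was 0.26 ± 0.21 on the log2 scale (standard error), which became 0.89 on the endothelial scaling and -0.36 under quantile normalization, and 0.16 without LPS 6. Cd93 is also made by monocytes, whose markers rose in these libraries, and their part in its level was not tested. LPS 1 had the lowest Cd93 of its group, and was also its lowest library in 10 of 10 capillary and 10 of 10 endothelial markers. Aplnr over Cd93, a ratio of general capillary genes, was 0.296 to 0.619 in saline and 0.0156 to 0.0444 in LPS.

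Ednrb, the type B receptor for endothelin, had the lowest fold change among the aerocyte markers. Its gene (ENSMUSG00000022122) lies on chromosome 14 from 103814625 to 103844402, minus strand. Saline 1 to 4 had 48.1, 57.8, 88.3 and 59.6 FPKM. After LPS the gene was at 5.39 to 15.6 FPKM, with a median of 11.9 FPKM, and the highest LPS library was well under the lowest saline library. The mean went from 63.4 ± 17.3 (SD, n = 4) to 11.3 ± 4.28 FPKM (SD, n = 6), which is 17.8% of saline, with a change of -2.44 ± 0.28 on the log2 scale (standard error). Of the 14893 genes tested, 23 had a lower fold change. The LPS values rest on 423 to 1271 reads per library.

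Car4 encodes a membrane-bound carbonic anhydrase, an enzyme of carbon dioxide exchange, and lies on chromosome 11 from 84957786 to 84966044, plus strand (ENSMUSG00000000805). It was the most abundant aerocyte marker. Saline 3, at 268 FPKM, stood above saline 1, 2 and 4 at 159.6, 153 and 167 FPKM, and LPS libraries ran from 34.4 to 105 FPKM with a median of 68.9 FPKM. The groups were apart, with means of 187 ± 54.3 (SD, n = 4) and 69.9 ± 23.5 FPKM (SD, n = 6) and a change of -1.44 ± 0.28 on the log2 scale (standard error). Without saline 3 the change was -1.26. Ednrb over Car4 was 0.301 to 0.378 in saline and 0.0969 to 0.213 in LPS, so these aerocyte genes did not keep their proportion.

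Tbx2, a T-box transcription factor, lies on chromosome 11 from 85832551 to 85841948, plus strand (ENSMUSG00000000093). Saline 1 to 4 had 61.1, 89.0, 107 and 99.5 FPKM, and LPS libraries had 11.7 to 37.4 FPKM with a median of 26.4 FPKM. All LPS libraries were below all saline libraries. The mean went from 89.1 ± 20.1 (SD, n = 4) to 26.1 ± 8.72 FPKM (SD, n = 6), or -1.78 ± 0.28 on the log2 scale (standard error). Fibin, a gene for a secreted protein first described in fin bud development, lies on chromosome 2 from 110360917 to 110363183, minus strand (ENSMUSG00000074971). Its saline levels were 59.9, 55.5, 94.5 and 65.9 FPKM, and in LPS it was at 8.84 to 36.8 FPKM with a median of 26.1 FPKM. Its groups were also apart, with means of 68.9 ± 17.6 (SD, n = 4) and 25.4 ± 9.84 FPKM (SD, n = 6) and a change of -1.49 ± 0.33 on the log2 scale (standard error), which was -1.22 without LPS 1.

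The order of the levels changed with LPS. In saline the mean FPKM fell in the order Cd93, Gpihbp1, Car4, Aplnr, Kit, Tbx2, Kitl, Fibin, Ednrb and Apln. Among neighbours in that order, the ranges were apart between Car4 and Aplnr and between Ednrb and Apln, and the other neighbours overlapped. In LPS the order was Cd93, Gpihbp1, Car4, Kitl, Kit, Tbx2, Fibin, Apln, Ednrb and Aplnr, with every pair of neighbours overlapping. Aplnr thus went from rank 4 to rank 10, below all other markers on mean FPKM.

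**Figure D3:**
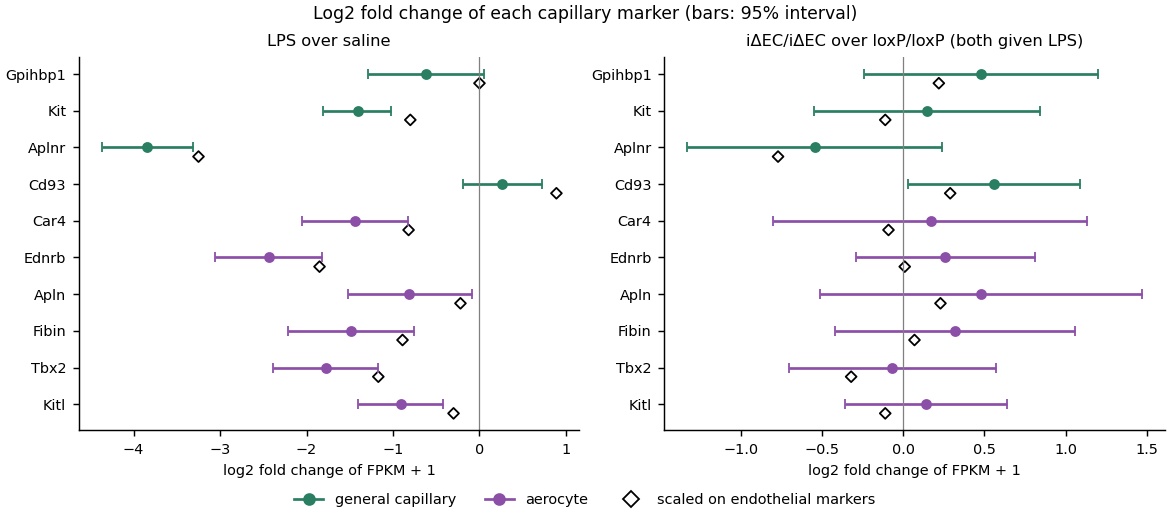
Log2 fold change of FPKM + 1 for each marker, LPS over saline (left) and iΔEC/iΔEC over loxP/loxP (right); circles are the fit with 95% intervals, green for general capillary and purple for aerocyte genes, and open diamonds are the values when libraries were scaled on 10 endothelial markers. On the left, values run from -3.84 for Aplnr to 0.26 for Cd93; on the right, from -0.54 for Aplnr to 0.56 for Cd93.

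For 4 of the markers, the genes with the most similar profile over the 10 libraries were found by the root mean square difference of log2(FPKM + 1), each gene centred on its saline mean. Closest to Gpihbp1 were Eng (0.155), an endothelial co-receptor for BMP ligands, and the predicted genes Gm14597 (0.186) and Gm30025 (0.188). For Car4 they were the fellow marker Fibin (0.192), Fam174b (0.202) and Cav1 (0.211), the main protein of endothelial caveolae. Ednrb was closest to Emp2 (0.172), a tetraspan membrane protein gene on a separate list of aerocyte genes, and then to Olfml2a (0.233) and Nptx1 (0.318). Aplnr had no near neighbour: Nr1d1 (0.561), a repressor of the circadian clock, and Cyp1a1 (0.597), a cytochrome P450 of the aryl hydrocarbon response, came first. The third, the microRNA gene Mir1968 (0.713), was at 0.670 FPKM on average in LPS. These distances describe profiles that share the same libraries and the same contrast.

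Other genes known from these cell types were tested over all genes; their lists too were drawn up with earlier results of these libraries known, so the calls are no independent support for the markers. Of 5 further general capillary genes, 3 were called lower and 0 higher after LPS, with a median log2 fold change of -1.43. Glp1r, the receptor for glucagon-like peptide 1, fell by 2.08 on the log2 scale (limma adjusted p = 0.00219), Ptprb, the vascular endothelial protein tyrosine phosphatase, fell by 1.62 (limma adjusted p = 0.000509), and Cxcl12, a chemokine gene, fell by 1.43 (limma adjusted p = 0.00317). Sema3c (-0.88) and Plvap (-0.55) were not called. Of 12 further aerocyte genes, 7 were called lower and 1 higher, with a median of -1.23. Emp2 fell from 119 ± 20.8 (SD, n = 4) to 23.4 ± 8.56 FPKM (SD, n = 6; limma adjusted p = 7.48e-05). Rprml (-1.81), Kdr (-1.63), the VEGF receptor that aerocytes carry at high level, Nckap5 (-1.55), Chst1 (-1.28), Fbln5 (-1.25) and Cyp4b1 (-1.22) were the other genes called lower. Fbln5 was at 21.4 FPKM in saline 1 and at 4.98 to 7.21 FPKM in saline 2 to 4. In LPS it was at 1.49 to 6.18 FPKM, so its groups overlapped. Sirpa rose by 2.67 (limma adjusted p = 4.16e-06), and it is also a gene of myeloid cells, whose part was not tested. The genes not called included Igfbp7, at 412 to 614 FPKM in saline and 364 to 1116 FPKM in LPS. Prx, also not called, was at 96.9 to 152 FPKM in saline and 60.3 to 153 FPKM in LPS. Summed over the 12 genes, saline libraries had 2224 to 2798 FPKM and LPS libraries 1142 to 2768 FPKM, so the sums overlapped. Under the endothelial scaling the counts were 2 lower and 0 higher of 5, and 3 lower and 2 higher of 12.

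Around the apelin receptor, 2 of 12 tested genes of 14 listed were called higher and 1 lower, with a median of -0.06. Arrb2, a beta-arrestin that binds activated receptors, rose by 1.83 (limma adjusted p = 8.6e-05), Klf2, a flow-induced transcription factor, rose by 1.21 (limma adjusted p = 0.000153), and Foxo1, a transcription factor held out of the nucleus by AKT, fell by 1.25 (limma adjusted p = 1.13e-05). Apela, the other ligand of the receptor, had at most 3 reads in any saline or LPS library. Around KIT, 3 of 16 genes were called higher and 0 lower, with a median of 0.47. These were Ptpn6 (3.77), a phosphatase abundant in leukocytes, Lyn (1.49), a SRC family kinase, and Socs1 (1.19), a feedback inhibitor of cytokine signalling. Arrb2, Lyn and Ptpn6, like the summed leukocyte markers, were highest in LPS 1 and lowest in LPS 6, and the part of leukocytes in them was not tested.

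Of 8 genes around the endothelin receptor 5 were tested and 1 was called, lower. Edn3, a ligand of EDNRB, went from 1.37 ± 0.340 (SD, n = 4) to 0.158 ± 0.0527 FPKM (SD, n = 6), on 8 to 19 reads per LPS library. It passed the filter through its saline values alone, and with a filter of a mean of at least 1 FPKM, 4 genes were tested and 0 were called, whereas limma-voom called 3 of 5 lower. Edn1, the main endothelial ligand, was at 280 FPKM in saline 1, at 57.7, 43.5 and 46.9 FPKM in saline 2 to 4 and at 66.1 to 137 FPKM in LPS. Its groups overlapped through saline 1 alone, and its log2 fold change of 0.32 was not called. Around lipoprotein lipase, the partner of GPIHBP1, 4 of 9 tested genes of 13 were called higher and 0 lower. Lpl itself rose from 39.0 ± 23.2 (SD, n = 4) to 193 ± 51.1 FPKM (SD, n = 6; log2 fold change 2.38, limma adjusted p = 0.000103). Fabp5 (3.73), a fatty acid binding protein, Angptl4 (1.75), an inhibitor of lipoprotein lipase, and Pparg (1.36), a lipid-sensing nuclear receptor, were the others. All 4 are also genes of macrophages, and the part of those cells was not tested.

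Among 6 genes for binding partners and relatives of CD93, 1 was called lower and 0 higher. It was Thbd, the gene of thrombomodulin, at 589.7 ± 49.0 FPKM in saline (SD, n = 4) and 287 ± 88.1 FPKM in LPS (SD, n = 6; log2 fold change -1.10, limma adjusted p = 0.00422). Of the other 12 carbonic anhydrase genes, 6 were tested. Car14 (-1.20, limma adjusted p = 0.000315) and Car2 (limma adjusted p = 0.004) were called lower, and 1 was called higher, Car13. It passed the filter through its LPS values alone and is given as a description, at 0.137 ± 0.0572 FPKM in saline (SD, n = 4), on 3 to 8 reads, and at 6.46 ± 0.314 FPKM in LPS (SD, n = 6). Of 10 other T-box genes, the 4 that were tested were all called lower, namely Tbx6 (-1.39), Tbx3 (-1.36), Tbx5 (-1.23) and Tbx4 (-1.05). Under the endothelial scaling 0 of these 4 T-box genes and 0 of the 6 carbonic anhydrases were called lower, as were 0 of the apelin, endothelin and CD93 lists. The same scaling called more genes higher, 5 of 12 around the apelin receptor, 7 of 16 around KIT, 5 of 9 around lipoprotein lipase and 2 of 6 around CD93.

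**Figure D4:**
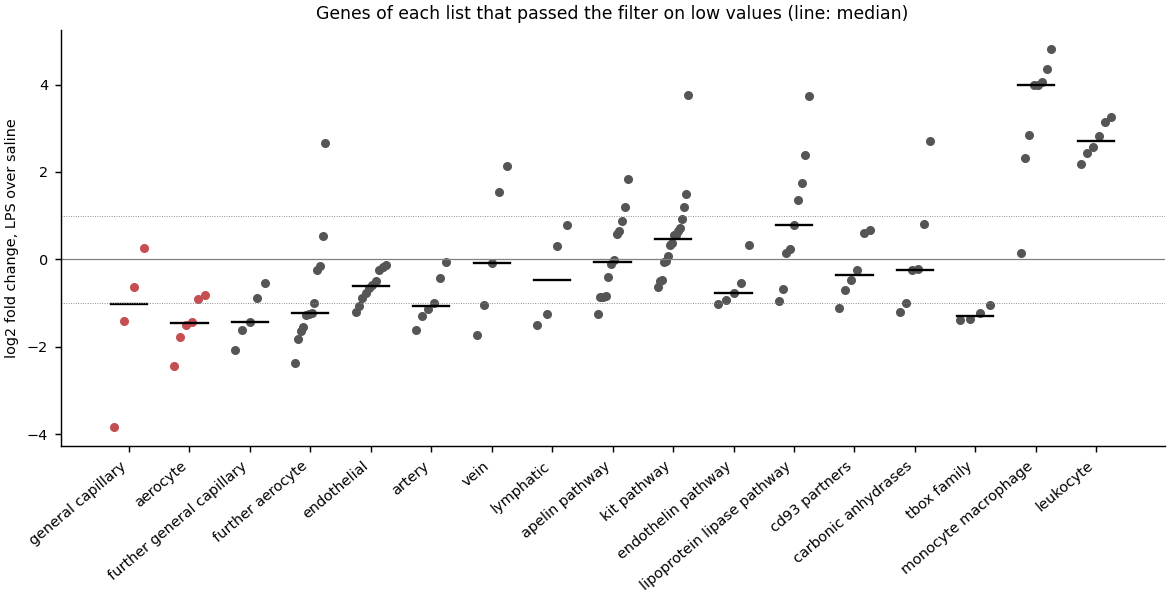
Log2 fold change, LPS over saline, of every gene that passed the filter in each list drawn (points) with the list's median (line); red points are the capillary markers and dotted lines mark -1 and 1. The medians of the further general capillary (-1.43), further aerocyte (-1.23), T-box (-1.30) and artery (-1.07) lists lie below -1, and those of the monocyte and macrophage (3.99) and leukocyte (2.70) lists above 1.

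Markers of other cells moved in the same comparison. Of 10 general endothelial genes, 2 were called lower and 0 higher, with a median of -0.62: Tek (-1.20) and Tie1 (-1.07), a receptor and co-receptor for angiopoietins. Pecam1 was at 400.3 ± 81.5 FPKM (SD, n = 4) in saline and 358 ± 76.8 FPKM (SD, n = 6) in LPS, with a log2 fold change of -0.17. Artery genes gave 4 lower of 6 (Gja4, Efnb2, Bmx and Gja5), and vein genes gave 2 lower (Slc6a2 and Vwf) and 2 higher (Selp and Ackr1) of 5. Lymphatic genes gave 2 lower of 4 tested (Flt4 and Ccl21a, whose reads are uncertain since it has near-identical copies). Quantile normalization called 7 of 10 endothelial genes lower and left the artery count at 4 of 6, and the endothelial scaling called 1 of 6 artery genes lower.

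All 6 leukocyte genes and 7 of 8 monocyte and macrophage genes were called higher. Ptprc, which encodes the CD45 used for depletion, rose from 6.97 ± 3.13 (SD, n = 4) to 34.6 ± 11.4 FPKM (SD, n = 6; limma adjusted p = 0.000112). The leukocyte genes, led by Coro1a (log2 fold change 3.25), with Laptm5 (3.15), Arhgdib (2.83) and Cd53 (2.57), summed to 223, 158, 78.2 and 135 FPKM in saline 1 to 4. In LPS 1 to 6 they summed to 1540.0, 1269, 1039, 1068, 1144 and 611 FPKM, so LPS 1 was the highest and LPS 6 the lowest. Over the same libraries the 10 endothelial genes, most abundant in Cldn5, summed to 1441, 3376, 2150.1, 3399, 2565 and 3109 FPKM, and in saline to 5454, 3198, 3977 and 3324 FPKM. The monocyte and macrophage genes called highest were Csf1r (4.81), Adgre1 (4.36), Cd68 (4.06) and Marco (4.00). None of the leukocyte or macrophage genes was at 0 in all libraries, and the part of leukocyte RNA in the lower capillary markers was not tested. Without LPS 1, the markers lower by at least 1 were again 6, namely Aplnr (-3.71), Ednrb (-2.27), Tbx2 (-1.57), Kit (-1.31), Car4 (-1.25) and Fibin (-1.22).

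Further lists were less uniform. Neutrophil genes gave 6 higher of 8, led by S100a8 (3.91), S100a9 (3.73), Csf3r (3.09) and Mmp9 (2.54). Their sum was 1269 FPKM for saline 1, 68.5 to 267 FPKM for saline 2 to 4 and 1248 to 6377 FPKM after LPS. Erythroid genes gave 3 higher of 4 (Hbb-bs, Hba-a1 and Hba-a2, paralogs that can share reads). Lymphocyte (Cd79a and Ms4a1), epithelial (Sftpc and Scgb1a1) and mural genes (Notch3 and Pdgfrb) each gave 2 lower, of 5, 9 and 7 tested. These counts became 0, 1 and 0 on the endothelial scaling, which called 1 mural gene higher, and 3, 5 and 2 with quantile normalization. For fibroblast (6 tested), mast cell and basophil (2 tested) and mesothelial genes (1 tested), 0 were called by limma.

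The genotype comparison set mice whose endothelial Fgfr1 had been deleted before LPS against littermates that kept it. Fgfr1 was at 2.90, 2.91 and 2.59 FPKM in loxP/loxP libraries 1 to 3 and at 0.683, 1.41 and 1.15 FPKM in iΔEC/iΔEC libraries 1 to 3. All iΔEC/iΔEC libraries were below all loxP/loxP libraries, as the labels have it, with 111 to 236 against 465 to 487 reads and a change of -0.88 ± 0.16 on the log2 scale (standard error), which limma did not call (adjusted p = 0.962 over all genes). Between libraries with the same number it was -1.21, -0.70 and -0.74. Reads over the whole gene do not show which exons were removed. By limma 0 of 14944 genes (0.0%) were called in either direction, with a smallest adjusted p of 0.742, while 661 (4.42%) had an unadjusted p under 0.05. Limma-voom on the recovered reads also called 0.

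Among the capillary markers 0 of 10 differed by 1 or more on the log2 scale between the genotypes, where 0.917% of all genes tested were lower and 0.248% higher by that much. Cd93 was the marker whose groups did not overlap, higher in iΔEC/iΔEC, where 6.1% of all genes tested lay apart in that direction. It was at 292, 228 and 339.9 FPKM in loxP/loxP libraries 1 to 3 and at 475, 347 and 441 FPKM in iΔEC/iΔEC libraries 1 to 3. The same-numbered differences of Cd93 were 0.70, 0.60 and 0.37 on the log2 scale. Since its groups were apart, any matching of the libraries gives this direction. The log2 fold change was 0.56 (95% interval 0.03 to 1.09), or 0.29 on the endothelial scaling. That interval is for 1 gene chosen with results known, with no adjustment over all genes, and is not read as a test. All intervals for the genotypes come from the fit without pairs, and so include any spread that same-numbered libraries may share. Among general endothelial genes, 3 of 10 (Cdh5, Egfl7 and Robo4) had groups apart with iΔEC/iΔEC higher, and 9 of 10 had a higher mean on the log2 scale. Pecam1 was at 397 ± 73.6 (SD, n = 3) against 476 ± 65.9 FPKM (SD, n = 3), with overlapping groups.

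**Figure D5:**
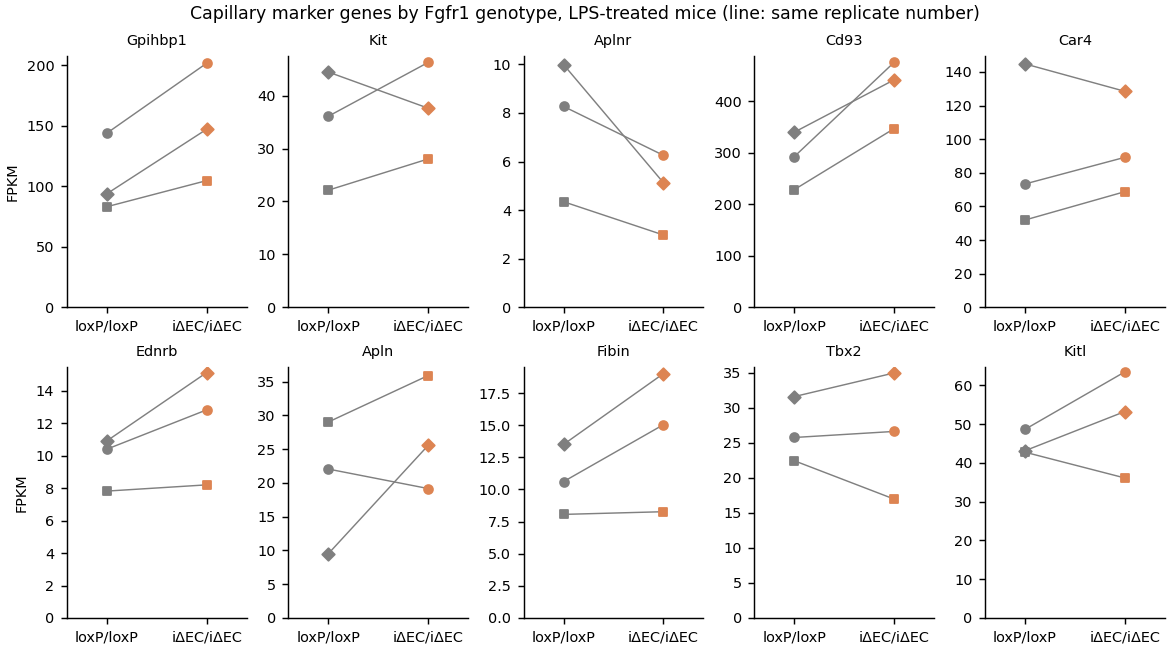
FPKM (linear axis from 0) of the 10 capillary markers in loxP/loxP (grey) and iΔEC/iΔEC (orange) libraries, all after 2 mg/kg LPS; lines join libraries with the same replicate number. Cd93 is the marker whose groups do not overlap, and the same numbers are not established as pairs.

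Aplnr was at 8.27, 4.35 and 9.99 FPKM in loxP/loxP and at 6.26, 2.98 and 5.13 FPKM in iΔEC/iΔEC libraries 1 to 3. The groups overlapped, and the log2 fold change was -0.54 (95% interval -1.33 to 0.24). It was -0.29 without iΔEC/iΔEC library 2, -0.32 without loxP/loxP library 3 and -0.85 without loxP/loxP library 2. The same-numbered differences of Aplnr were -0.35, -0.42 and -0.84 on the log2 scale. Its ligand Apln was at 22.0, 29.0 and 9.51 FPKM in loxP/loxP and 19.2, 35.9 and 25.5 FPKM in iΔEC/iΔEC. Here loxP/loxP library 3 was the low value, and the log2 fold change of 0.48 (95% interval -0.51 to 1.47) was 0.04 without it, 0.26 without iΔEC/iΔEC library 2 and 0.79 without loxP/loxP library 2. On the endothelial scaling Apln was at 0.23 and Aplnr at -0.77. The same-numbered differences of Apln were -0.19, 0.30 and 1.33.

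Gpihbp1 was at 144, 83.1 and 93.9 FPKM in loxP/loxP and at 202, 105 and 147 FPKM in iΔEC/iΔEC libraries 1 to 3. Its same-numbered differences were 0.48, 0.33 and 0.64 on the log2 scale, with overlapping groups and a log2 fold change of 0.48 (95% interval -0.24 to 1.20). The share of all genes with 1 direction over the 3 numbers was not determined. Nothing is therefore read from a shared direction. Ednrb was at 10.4, 7.82 and 10.9 against 12.8, 8.21 and 15.1 FPKM, and Fibin at 10.6, 8.06 and 13.5 against 15.0, 8.27 and 19.0 FPKM. The same-numbered differences were 0.28, 0.06 and 0.43 for Ednrb and 0.46, 0.03 and 0.46 for Fibin. Their log2 fold changes were 0.26 (95% interval -0.29 to 0.81) and 0.32 (95% interval -0.42 to 1.06). These shrank to 0.01 and 0.07 on the endothelial scaling. Gpihbp1 was at 0.22 on that scaling. Single libraries moved these values too, with Gpihbp1 at 0.26 without iΔEC/iΔEC library 1 and 0.72 without iΔEC/iΔEC library 2. Ednrb was at 0.09 and Fibin at 0.08 without iΔEC/iΔEC library 3, at 0.12 and 0.14 without loxP/loxP library 2, and at 0.49 and 0.64 without iΔEC/iΔEC library 2.

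Kit was at 36.1, 22.1 and 44.5 FPKM in loxP/loxP and 46.3, 28.0 and 37.6 FPKM in iΔEC/iΔEC, and Kitl at 48.6, 42.7 and 43.1 against 63.4, 36.1 and 53.2 FPKM. Car4 was at 73.4, 51.9 and 145 against 89.2, 68.8 and 129 FPKM, and Tbx2 at 25.8, 22.5 and 31.6 against 26.6, 17.0 and 35.0 FPKM. These groups overlapped, and the same-numbered differences went both ways. They were 0.35, 0.33 and -0.24 for Kit, and 0.38, -0.24 and 0.29 for Kitl. For Car4 they were 0.28, 0.40 and -0.18, and for Tbx2 0.04, -0.38 and 0.14. The log2 fold changes were 0.15 (95% interval -0.55 to 0.84) for Kit, 0.14 (-0.36 to 0.64) for Kitl, 0.17 (-0.80 to 1.13) for Car4 and -0.07 (-0.70 to 0.57) for Tbx2. The signs of Kit, Kitl and Car4 turned on the endothelial scaling, to -0.11, -0.11 and -0.09, and Tbx2 went to -0.32. These intervals leave room for differences of 0.36 or more on the log2 scale in either direction.

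Over the genotypes the median log2 fold change was 0.31 for general capillary and 0.21 for aerocyte markers, against 0.01 for all genes tested and 0.29 for the 10 endothelial genes. On the endothelial scaling they were 0.06 and -0.04. Single libraries moved both, the general capillary median to 0.09 without loxP/loxP library 2, 0.12 without iΔEC/iΔEC library 1 and 0.51 without iΔEC/iΔEC library 2, and the aerocyte median to 0.11 without loxP/loxP library 2, 0.37 without iΔEC/iΔEC library 2 and 0.09 without iΔEC/iΔEC library 3. LoxP/loxP library 2 was the lowest of its group in 9 of 10 capillary and 4 of 10 endothelial genes, against 33.2% of all genes tested, and iΔEC/iΔEC library 2 was the lowest of its group in 9 of 10 capillary and 9 of 10 endothelial genes, against 38.5%. In all 9 lists of related genes and all 14 lists of cell markers, the endothelial list included, limma called 0 genes. Leukocyte genes summed to 406, 536 and 518 FPKM in loxP/loxP and 285, 619 and 385 FPKM in iΔEC/iΔEC libraries 1 to 3, and epithelial genes to 972, 1723 and 2964 against 493, 1137 and 896 FPKM, with Sftpc the most abundant. Their part in the levels of the markers was not tested.

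Side by side, the mean of Aplnr was 115 FPKM in WT saline, 7.32 in WT with 10 mg/kg LPS, 7.53 in loxP/loxP and 4.79 in iΔEC/iΔEC with 2 mg/kg LPS. For Ednrb the means were 63.4, 11.3, 9.72 and 12.1 FPKM, for Kit 93.7, 35.2, 34.2 and 37.3 FPKM, and for Fibin 68.9, 25.4, 10.7 and 14.1 FPKM. Dose, genotype, tamoxifen and the table differ between the experiments and cannot be told apart, so no difference between them was tested.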

How the data were processed

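The authors aligned reads to GRCm38/mm10 with HISAT2 (v2.0.5), counted them on genes with featureCounts (v1.5.0-p3) and deposited FPKM, with gene lengths, in 1 table per experiment. The annotation release, strandedness and treatment of multi-mapping reads are not given in the sources used here. FPKM multiplied by length and divided by the value of a single read gave whole reads (within 0.01) for 100.0% of values. The deposited FPKM are already close to median-of-ratios scaling, which was applied again. Values as log2(FPKM + 1) were compared within each table with limma 3.58.1 (R 4.3.3; lmFit, eBayes with trend) for genes averaging 0.5 FPKM or more, and calls needed a Benjamini-Hochberg adjusted p of at most 0.05 and a log2 fold change of 1 or more in size. Fold changes on this scale understate those of low genes. The fit was tested on simulated data. Intervals are for 1 gene at a time, and standard errors cover the spread between libraries. Reads are not independent molecules. Where a symbol names more than 1 gene (Ccl21a), the more abundant entry was used.

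In the genotype experiment, deviations from the group means correlated by 0.248, 0.178 and 0.187 between libraries with the same number. Between unlike numbers they correlated by -0.14 to -0.041. In the LPS experiment saline 2 and LPS 3, with unlike numbers, correlated by 0.289, so values of this size do not establish pairs. The labels do not explain the numbers, and same-numbered differences are given as a description only.

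The 10 markers and all gene lists were chosen with earlier results of these data known. Named genes are the 10 markers, the called genes of each list (at most the 4 with the largest change, although all 7 further aerocyte genes called lower are given), the 3 genes closest in profile to Gpihbp1, Aplnr, Car4 and Ednrb, Fgfr1, Ptprc and Pecam1. Other list genes were named after their values were seen. Other pseudocounts, filters, scalings, limma-voom, a replicate block, no fold limit and leaving out each library were the alternatives.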

Additional observations from a re-analysis of the deposited data

Results flagged for a closer look

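In the groups of at least 4 libraries, saline and LPS, 70 group values were examined for a library far from the others. Of these, 5 were marked, where chance alone would mark about 3.5. Car4 in saline was at 268 FPKM in saline 3 and at 153 to 167 FPKM in the other saline libraries. The mean log2(FPKM + 1) of the 6 aerocyte markers was 3.74 in LPS 1 against 4.67 to 5.18 in the other LPS libraries. In saline 1 the apelin pathway genes averaged 4.66, against 4.22 to 4.25 in the other saline libraries. Saline 3 was low in lymphocyte genes, at 1.80 against 3.29 to 3.43, and in fibroblast genes, at 2.21 against 2.70 to 2.77.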

How the results depend on the processing

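The 1768 genes called higher in LPS became 3882 with endothelial marker scaling and 4399 with no fold limit. The 1011 called lower became 1840 and 1850 with pseudocounts of 0.1 and 0.01, 265 with endothelial marker scaling, 2186 with limma-voom on the recovered reads and 3529 with no fold limit. Leaving out each library in turn gave 1664 to 1951 higher and 904 to 1104 lower. The median of the general capillary markers, -1.02, became -0.40 with endothelial marker scaling and -1.59 with quantile normalization, and that of the aerocyte markers, -1.46, became -0.86 with endothelial marker scaling. Markers lower by at least 1 numbered 3 of 10 with endothelial marker scaling, 8 with total reads and 9 with quantile normalization, and 6 to 8 without single libraries. In the genotype comparison the aerocyte median of 0.21 became -0.04 with endothelial marker scaling, and 0 genes were called under every alternative run. The cause was not tested for these shifts, apart from those that follow from the setting itself (no fold limit).

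In the LPS experiment, deviations of same-numbered libraries correlated by -0.209 to 0.0972, and those of unlike numbers by -0.156 to 0.289. These correlations give no ground for pairs and cannot decide whether the numbers pair the libraries. A replicate block there gave 1925 genes higher, 1063 lower, marker medians of -1.07 and -1.55, and 7 markers lower by at least 1. In the genotype experiment the block left 0 genes called in either direction and medians of 0.31 and 0.21, and changed no call.

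Counting error is small for all 10 markers, since each had at least 187 reads per library; in the genotype comparison, leaving out single libraries turned the sign of Kit (-0.13 to 0.36), Car4 (-0.16 to 0.58), Tbx2 (-0.29 to 0.20) and Kitl (-0.03 to 0.37).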
